A study of Mus musculus with 7 samples.

Results

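Perineuronal nets are dense coats of extracellular matrix around the cell bodies and proximal dendrites of some neurons, in cortex mostly the fast-spiking interneurons that express parvalbumin. The 10 genes described here encode net components or act on their sugar chains: the chondroitin sulfate proteoglycans Acan, Bcan, Ncan and Vcan, the link proteins Hapln1 and Hapln4, the tenascins Tnr and Tnc, the receptor phosphatase Ptprz1 and the epimerase Dsel. They were taken by symbol from the 23413 gene symbols counted in each library, and all 10 were found. The set was chosen by name after the KD against CD fold changes and raw p values of these same libraries were known, so its diet values are given as a description without a test.

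In a net, long chains of hyaluronan leave the neuron surface and carry the lecticans, a family of proteoglycans whose core proteins bind hyaluronan at one end and tenascins at the other. Link proteins lock the lectican onto hyaluronan, and tenascin-R joins several lecticans together. Chondroitin sulfate chains on the core proteins give the net its negative charge and bind receptors and growth factors. Nets stabilise synapses onto the enclosed cells and limit plasticity in the adult cortex. Glia make much of this matrix, and the enclosed neurons add aggrecan and link protein.

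RNA came from frozen brain cortex of 13-month-old APP/PS1 mice [B6.Cg-Tg(APPswe,PSEN1dE9)85Dbo/Mmjax], a line that carries mutant human APP and presenilin 1 transgenes and develops amyloid plaques. At 6 months the mice went onto 1 of 2 diets, were housed singly and stayed on the diet for 7 months. The control diet (CD, labelled SD) supplied 74% of energy as carbohydrate, 10% as protein and 16% as fat. Fat made up 90% of the ketogenic diet (KD), with 10% protein and less than 0.5% carbohydrate. There were 4 CD and 3 KD libraries, each from 1 mouse, and all of them carried the transgenes, so the diet is compared within the disease model only.

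The libraries held 22272883 to 36614954 counts. Markers of cortical excitatory neurons were detected in every library (10 of 10 listed genes, summed level 1400 to 2051 CPM, that is counts scaled by the library total). CD replicate 4 also held olfactory bulb transcripts (summed level of 9 genes 83.2 CPM, against 7.16 to 12.2 CPM in the other CD libraries, 22.5 CPM in KD replicate 3 and 5.86 and 6.67 CPM in the other KD libraries). KD replicate 3 held the most ventral forebrain transcripts (summed level of 9 genes 20.3 CPM, against 1.39 to 2.17 CPM elsewhere). Lhx9 (10.5 CPM) and Gabrq (7.68 CPM) made up most of it, while of the cholinergic genes in that list Chat was at its lowest there (0.180 CPM, against 0.246 to 0.885 CPM) and Slc18a3 at 0. CD replicate 3 and KD replicate 3 held the lowest mature oligodendrocyte levels (1227 and 1260 CPM, against 2342 to 4652 CPM). The summed level of 7 choroid plexus genes was highest in CD replicate 1 (464 CPM, against 12.7 to 84.6 CPM), where Ttr alone gave 425 CPM. Folr1 and Clic6 were also highest there, but Kl, Aqp1 and Kcnj13 were highest in CD replicate 4 and Prlr in KD replicate 3. Microglial markers summed to 465 to 749 CPM in CD and 598 to 841 CPM in KD, and the 4 red blood cell genes to 54.4 to 90.5 CPM in CD and 29.4 to 81.2 CPM in KD. Of these Beta-s (beta globin) and Alas2 were detected in every library, and Hba-a1 and Hba-a2 were listed at 0 in all. The sex of the mice is not given by the labels, and Xist had 7 to 101 counts in CD replicates 3 and 4 and KD replicate 3, and 7247 to 12294 in the others. Pairs of libraries of 1 diet differed by far more than sampling noise (chi-square per gene 15.8 to 68.5).

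Ncan and Bcan were the most abundant transcripts of the set per exon length, and Acan and Tnc the least. In RPKM (CPM per kilobase of annotated exon) the mean level over the 7 libraries was 32.6 ± 1.95 (SD, n = 7) for Ncan, the neurocan core protein, and 26.0 ± 3.94 for Bcan, the brevican core protein. Hapln4 followed with 23.8 ± 7.08 RPKM, Ptprz1 with 15.0 ± 3.37 RPKM and Tnr with 10.4 ± 2.29 RPKM. Dsel had 7.78 ± 2.53 RPKM and Hapln1 4.79 ± 0.710 RPKM. Vcan, the versican core protein, had 1.63 ± 0.391 RPKM, Acan, the aggrecan core protein, 0.935 ± 0.373 RPKM and Tnc, tenascin-C, 0.708 ± 0.353 RPKM. Aggrecan is the lectican most closely tied to nets, and its transcript was the scarcest of the 4 lecticans.

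Of the 9 pairs of neighbours in this order, 6 differed at an adjusted p under 0.05 in an exact paired permutation test over the 7 libraries (two-sided, Benjamini-Hochberg over the pairs). The largest step was from Hapln1 to Vcan, a difference in level of 1.57 on the log2 scale (SD 0.24, in the same order in 7 of 7 libraries, exact permutation adjusted p = 0.0352). Tnr over Dsel, Dsel over Hapln1 and Vcan over Acan also held in 7 of 7 libraries (exact permutation adjusted p = 0.0352 each). Ncan over Bcan and Ptprz1 over Tnr held in 6 of 7 libraries (exact permutation adjusted p = 0.0469 each). Bcan and Hapln4 (exact permutation adjusted p = 0.344), Hapln4 and Ptprz1 (0.0603) and Acan and Tnc (0.158) did not differ beyond their spread. Per length of the longest annotated transcript, Ptprz1 passed Hapln4 with 26.5 RPKM and Bcan passed Ncan with 33.6 RPKM. The union of Ptprz1 exons spans 14245 bases and its longest transcript 8068, and those of Bcan 4064 and 3141. By that length Bcan and Ncan did not differ beyond their spread (Bcan higher in 4 of 7 libraries, exact permutation adjusted p = 0.891).

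**Figure D1:**
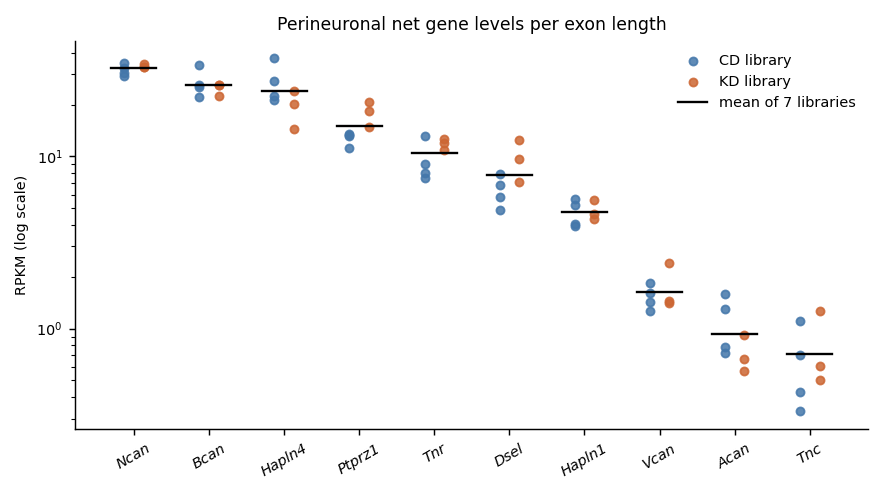
Level of each gene in RPKM (log axis) in the 4 CD and 3 KD libraries (points), with the mean of the 7 libraries (line), ordered by that mean. The means run from 32.6 RPKM for Ncan to 0.708 RPKM for Tnc, and the points of Hapln4, Acan and Tnc are spread more widely than those of Ncan.

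Each lectican gene lies beside a link protein gene, with no protein-coding gene annotated between them. Hapln4 and Ncan are 2222 bases apart on chromosome 8, Hapln1 and Vcan 43659 bases apart on chromosome 13, and Acan and Hapln3 2 bases apart on chromosome 7. In these 3 pairs the genes are on opposite strands and end towards each other. Bcan and Hapln2 are 21519 bases apart on chromosome 3, on the same strand. The members are thus 2 adjacent pairs and 6 single genes. Within the adjacent pairs, Hapln1 had the higher mean RPKM than Vcan and Ncan the higher than Hapln4.

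The promoters of 9 of the 10 genes (250 bases before to 50 after the start site, RefSeq, GRCm38.p6) could be matched. Those of Ptprz1, Dsel, Tnr and Acan are shown because their transcripts had the largest differences between the diets among the matched genes, in both directions. All motifs were read on both strands with overlaps kept, and capitals mark the GC box GGGCGG or its complement.
Ptprz1: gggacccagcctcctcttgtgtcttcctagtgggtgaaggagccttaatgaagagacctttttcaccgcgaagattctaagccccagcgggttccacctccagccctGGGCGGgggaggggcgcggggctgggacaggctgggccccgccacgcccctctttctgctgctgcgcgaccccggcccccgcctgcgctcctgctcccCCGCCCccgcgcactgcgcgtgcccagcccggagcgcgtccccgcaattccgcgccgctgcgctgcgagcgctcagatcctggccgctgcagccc
Dsel: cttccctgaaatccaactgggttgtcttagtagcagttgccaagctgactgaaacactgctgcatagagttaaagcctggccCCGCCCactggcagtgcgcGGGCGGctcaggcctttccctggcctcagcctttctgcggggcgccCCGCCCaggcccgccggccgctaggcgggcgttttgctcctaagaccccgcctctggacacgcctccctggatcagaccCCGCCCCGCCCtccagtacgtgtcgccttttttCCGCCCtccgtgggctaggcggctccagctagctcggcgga
Tnr: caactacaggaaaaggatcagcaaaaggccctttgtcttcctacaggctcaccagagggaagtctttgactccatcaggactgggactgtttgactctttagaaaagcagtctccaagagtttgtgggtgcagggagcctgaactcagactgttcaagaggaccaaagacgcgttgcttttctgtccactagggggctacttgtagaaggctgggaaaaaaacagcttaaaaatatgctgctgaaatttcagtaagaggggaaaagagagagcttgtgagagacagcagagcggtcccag
Acan: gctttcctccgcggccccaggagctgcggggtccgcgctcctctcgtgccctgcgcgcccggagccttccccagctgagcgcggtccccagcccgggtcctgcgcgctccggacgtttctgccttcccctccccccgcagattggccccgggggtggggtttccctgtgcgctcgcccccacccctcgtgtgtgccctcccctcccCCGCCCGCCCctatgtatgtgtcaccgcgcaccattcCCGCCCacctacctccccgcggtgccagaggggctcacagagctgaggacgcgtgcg
The Ptprz1 sequence is from chr6:22875252-22875551 (plus strand), that of Dsel from chr1:111864869-111865168 (minus strand), that of Tnr from chr1:159523519-159523818 (plus strand) and that of Acan from chr7:79052976-79053275 (plus strand). GC boxes occurred 6 times in the Dsel promoter, 3 times in that of Acan, 2 times in that of Ptprz1 and not in that of Tnr. At least 1 GC box was present in 7 of the 9 matched genes, and in 35.7% of all 32851 promoters. Acan and Ptprz1 had 31 and 29 CpG dinucleotides and Dsel 23, whereas Tnr and Hapln1 had 3 each, against a median of 7 over all promoters. The letters TATAAA of the TATA box were found on either strand in Ncan, where they lie on the strand opposite to the gene, and in Tnc (13.6% of all promoters). The cyclic AMP response element TGACGTCA (1.79% of all promoters), the SOX letters AACAAT (10.7%) and the OTX2 letters TAATCC (7.06%) were in none of the 9. The promoters of Acan and Ptprz1 were GC-rich (74.0% and 71.7%, median of all promoters 52.7%). These letters describe the sequence only, and their part in the diet values was not tested.

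KD was compared with CD to ask how the diet alters cortical gene expression in the disease model. Among the lecticans, aggrecan had a lower mean in KD, while the fold changes of the other 3 lay between -0.11 and 0.21 on the log2 scale. Acan (chromosome 7, 79053483 to 79115099) had 9.72, 5.38, 5.86 and 11.9 CPM in CD replicates 1 to 4 and 4.96, 4.26 and 6.82 CPM in KD replicates 1 to 3. The highest values were those of CD replicates 1 and 4, and 2 of the 3 KD libraries were below every CD library, so the ranges overlapped only through KD replicate 3. The means were 8.20 ± 3.11 CPM (SD, n = 4) and 5.35 ± 1.33 CPM (SD, n = 3), a fitted log2 fold change of -0.61 (standard error 0.30). Without CD replicate 4 the fold change was -0.40, and without KD replicate 3 -0.81. The counts behind it were 116 to 434 per library.

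Ncan (chromosome 8, 70093085 to 70120873) was the steadiest of the 10 genes. It had 250, 220, 236 and 211 CPM in the CD libraries and 246, 238 and 239 CPM in the KD libraries, where the KD values lay inside the CD range. The fitted log2 fold change was 0.08 (standard error 0.09), and the SD of log2 CPM over the 7 libraries was 0.09. The median SD over all tested genes was 0.21. That median used log2 CPM with TMM scaling and a small added count, so the scales are not the same. Bcan (chromosome 3, 87987531 to 88000230) had 106, 89.9, 103 and 138 CPM in CD and 90.8, 105 and 105 CPM in KD, again inside the CD range. Its log2 fold change of -0.11 (standard error 0.13) became 0.002 without CD replicate 4, the library with the highest value. Neurocan and brevican are released by astrocytes as well as neurons, and the summed astrocyte marker level (10 of 10 genes detected in every library) was 5730 to 6604 CPM in CD and 5267 to 7794 CPM in KD.

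Vcan (chromosome 13, 89655312 to 89742509), which is made largely by oligodendrocyte precursors, had 20.5, 18.2, 23.3 and 26.7 CPM in CD and 34.8, 20.4 and 20.9 CPM in KD. KD replicate 1 alone lay above the CD range. The log2 fold change of 0.21 (standard error 0.21) became -0.09 without KD replicate 1. Precursor markers (9 of 9 detected in every library) summed to 171 to 280 CPM in CD and 176 to 262 CPM in KD, with 219 CPM in KD replicate 1. The part of these cells in the Vcan values was not tested.

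**Figure D2:**
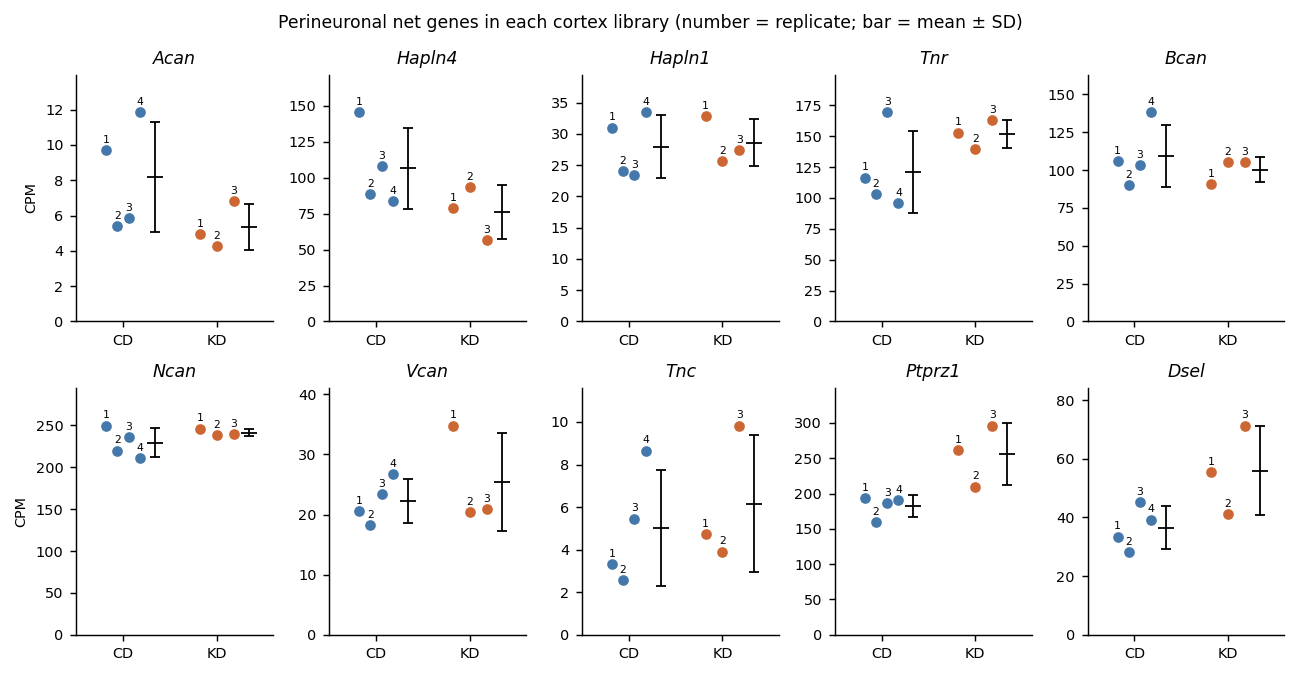
CPM (y axis, from 0) of the 10 genes in each CD and KD library (points, numbered by replicate), with the mean ± SD of each diet (bars; n = 4 for CD, n = 3 for KD). The KD points of Ptprz1 lie above all CD points, those of Ncan, Bcan and Hapln1 inside the CD range, and CD replicate 4 and KD replicate 3 are the highest points of Tnc.

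Of the link proteins Hapln4, also called Bral2 and bound to brevican in nets, had a lower mean in KD, while the KD libraries of Hapln1, the cartilage link protein that neurons also make, lay inside its CD range. Hapln4 (chromosome 8, 70083457 to 70090862) had 146, 88.4, 108 and 83.8 CPM in CD and 78.8, 93.6 and 56.5 CPM in KD. CD replicate 1 was the highest library and KD replicate 3 the lowest, and 2 of the 3 KD libraries lay below every CD library. The means were 106 ± 28.1 CPM (SD, n = 4) and 76.3 ± 18.7 CPM (SD, n = 3), a log2 fold change of -0.47 (standard error 0.24). It was -0.28 without CD replicate 1. Hapln1 (chromosome 13, 89539796 to 89611652) had 31.0, 24.0, 23.4 and 33.5 CPM in CD and 32.8, 25.6 and 27.4 CPM in KD, a log2 fold change of 0.05 (standard error 0.15).

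Set against its chromosomal neighbour Ncan, Hapln4 gave 0.583, 0.402, 0.459 and 0.397 counts per Ncan count in CD, and 0.320, 0.393 and 0.236 in KD. The lowest CD library and the highest KD library were nearly level in this ratio. Acan gave 0.313, 0.224, 0.251 and 0.354 counts per Hapln1 count in CD, and 0.151, 0.166 and 0.249 in KD, so the ratio of KD replicate 3 lay among those of CD. These are ratios of counts without regard to length.

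Acan and Hapln4 are expressed by the interneurons that nets enclose, and the summed level of parvalbumin interneuron markers was lower in every KD library than in every CD library. The 11 listed genes were detected in every library. Their summed level was 1162 to 1414 CPM in CD and 1044 to 1073 CPM in KD. Gad1 alone gave 471 to 681 CPM of the sum in CD and 399 to 454.5 CPM in KD. Of the 11 genes 7 were lower and 4 higher in KD by fitted value, with a median log2 fold change of -0.08. The KD range lay below the CD range in 3, Syt2, Kcnc1 and Gad1 (2.56% of all tested genes did so). Pvalb itself, the calcium buffer that defines the cells, had 110, 107, 67.3 and 76.2 CPM in CD and 64.4, 67.9 and 18.6 CPM in KD. KD replicate 3, with the least Pvalb, was the KD library with the most Acan and the least Hapln4. Syt2, Kcnc1 and Kcnc2 were also at their lowest of the 7 libraries there. Tac1 (35.5 CPM), Plcxd3 (55.85 CPM), Lhx6 (20.6 CPM) and Erbb4 (95.5 CPM) were at their highest. The part of these cells in the 2 differences was not tested, and in bulk tissue fewer cells of a type cannot be told apart from less RNA per cell.

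The tenascins are large glycoproteins that bind the far ends of the lecticans. Tnr (chromosome 1, 159523769 to 159931729), tenascin-R, which oligodendrocyte-lineage cells and some neurons make, had 116, 103, 169 and 95.9 CPM in CD and 153, 140 and 163 CPM in KD. Each KD library lay above 3 of the 4 CD libraries, and CD replicate 3 was the highest of all. The means were 121 ± 33.3 CPM (SD, n = 4) and 152 ± 11.5 CPM (SD, n = 3), a log2 fold change of 0.33 (standard error 0.19). It was 0.22 without CD replicate 4, and 0.19 with CD replicate 4 and KD replicate 3 both left out. Without CD replicate 3 it was 0.54. That library also had the lowest summed level of mature oligodendrocyte markers (10 of 10 detected in every library; 1227 to 4652 CPM in CD, 1260 to 4573 CPM in KD), and the part of this in the Tnr value was not tested.

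Tnc (chromosome 4, 63959785 to 64047015), tenascin-C, which is abundant in development and made by astrocytes in the adult, varied most. It had 3.33, 2.58, 5.46 and 8.66 CPM in CD and 4.75, 3.91 and 9.83 CPM in KD. Its highest library, KD replicate 3, had 3.82 times the CPM of its lowest, CD replicate 2. CD replicate 4 and KD replicate 3, the 2 libraries with olfactory bulb or ventral forebrain transcripts, were the highest of their diets. The log2 fold change was 0.31 (standard error 0.45), and it was -0.18 without KD replicate 3 and 0.68 without CD replicate 4. With both left out it was 0.20. Meningeal fibroblast markers (8 of 8 detected in every library) summed to 37.7 to 228 CPM in CD and 40.0 to 85.4 CPM in KD, with the highest values in the same 2 libraries. The part of these tissues in Tnc was not tested. Annotated antisense transcripts overlap 443 exonic bases of Tnr and 176 of Tnc, and although the library kit was a stranded one, the strand option of the counting is not given in the sources used here, so reads may be shared.

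Ptprz1 and Dsel were the members with the largest positive differences. Ptprz1 encodes a receptor-type tyrosine phosphatase that carries chondroitin sulfate, and its secreted form is the matrix proteoglycan phosphacan. It lies on chromosome 6 from 22875502 to 23052916. It had 193, 159, 187 and 191 CPM in the CD libraries and 262, 210 and 296 CPM in the KD libraries. All 3 KD libraries lay above all 4 CD libraries, with the smallest gap between CD replicate 1 and KD replicate 2. The counts do not separate the receptor from phosphacan, which come from 1 gene. The means were 182 ± 15.7 CPM (SD, n = 4) and 256 ± 43.6 CPM (SD, n = 3), a log2 fold change of 0.50 (standard error 0.12) that ran from 0.39 to 0.61 as each library was left out. Astrocytes and oligodendrocyte precursors are its main sources, and KD replicate 3, the highest library of Ptprz1, had the lowest summed astrocyte marker level (5267 CPM). The glutamate transporter Slc1a2 gave 2869 CPM of that sum. Slc1a2, Aldh1l1 (46.6 CPM), Fgfr3 (69.5 CPM) and Aldoc (720 CPM) were at their lowest of the 7 libraries there, and Slc1a3 at its highest (768 CPM). The precursor sum of KD replicate 3 was 262 CPM. It lay above the 171 to 211 CPM of CD replicates 1 to 3 and below the 280 CPM of CD replicate 4. In KD replicate 3 the precursor markers Lhfpl3 (55.3 CPM), Gpr17 (32.8 CPM) and C1ql1 (2.92 CPM) lay above every CD library. Olig2 (8.04 CPM) lay below every CD library, and Olig1 (15.3 CPM) and Sox10 (6.6 CPM) below CD replicates 1, 2 and 4. The part of these cells in the difference was not tested.

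Dsel encodes a dermatan sulfate epimerase, which turns glucuronic acid of the chondroitin chain into iduronic acid and so makes dermatan sulfate. It is a short gene on chromosome 1 from 111858702 to 111864918. It had 33.4, 28.1, 45.3 and 39.3 CPM in CD and 55.4, 41.0 and 71.3 CPM in KD. KD replicates 1 and 3 lay above every CD library, whereas KD replicate 2 lay below CD replicate 3. The means were 36.5 ± 7.44 CPM (SD, n = 4) and 55.9 ± 15.2 CPM (SD, n = 3), a log2 fold change of 0.62 (standard error 0.20). Without KD replicate 3 it was 0.42. The other dermatan sulfate epimerase gene, Dse, had 15.3 CPM in CD and 13.8 CPM in KD, a log2 fold change of -0.14 (standard error 0.28). Whether the 2 epimerases differ in their response was not tested.

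**Figure D3:**
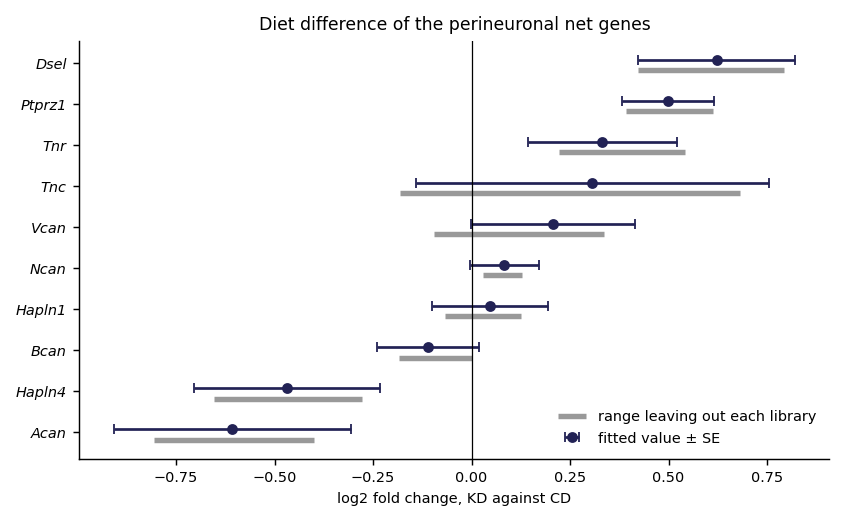
Fitted log2 fold change of KD against CD for each gene (point, with its standard error) and the range of the fold change as each of the 7 libraries was left out (grey bar). The bars of Acan and Hapln4 stay below 0 and those of Ptprz1, Dsel, Tnr and Ncan above 0, while those of Bcan, Hapln1, Vcan and Tnc reach across it.

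By fitted level, 7 of the 10 genes were above and 3 below CD, with a median log2 fold change of 0.14, where the median of all 15881 tested genes was -0.003 and 49.0% were higher. All 10 passed the filter on low counts. In the quasi-likelihood test of edgeR, 0% of all tested genes passed an adjusted p of 0.05 (0 genes, with 506 at an unadjusted p under 0.05, 1 gene by the likelihood-ratio test and 0 by DESeq2), and none of the 10 did. A raw p of at most 0.01, the study's threshold, was reached by 0.321% of tested genes (0.151% higher and 0.17% lower in KD) and by 1 of the 10, Ptprz1, higher in KD. A raw p under 0.05 was reached by 3.19% (1.66% higher and 1.52% lower) and by 2 of the 10, Ptprz1 and Dsel, both higher. Library ranges did not overlap in 4.2% (1.64% with higher KD values and 2.56% with lower ones) and in 1 of the 10, Ptprz1. These counts describe genes chosen with this contrast in view, and nothing is read from them. Leaving out KD replicate 1 gave 5 higher and 5 lower genes, with a median of 0.009.

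The libraries did not move the genes as a block. CD replicate 4 was the highest library of Acan, Bcan and Hapln1 and the lowest of Ncan and Tnr. CD replicate 2 was the lowest library of Bcan, Vcan, Tnc, Ptprz1 and Dsel. KD replicate 3 was the highest of Tnc, Ptprz1 and Dsel and the lowest of Hapln4. Relative to the CD mean, the log2 ratio of KD replicate 3 was 0.97 for Tnc, 0.97 for Dsel and 0.70 for Ptprz1, and -0.91 for Hapln4. In KD replicate 2 the same ratios were -0.36, 0.17, 0.20 and -0.19, all nearer to 0.

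**Figure D4:**
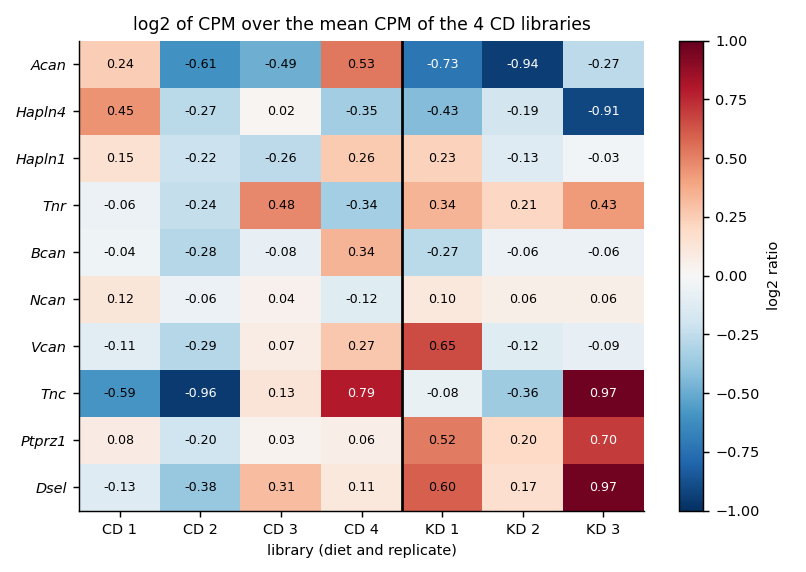
Log2 of each library's CPM over the mean CPM of the 4 CD libraries, for the 10 genes (rows) and the 7 libraries (columns; the vertical line separates CD from KD); red is higher and blue lower. Ptprz1 and Dsel are positive in the 3 KD libraries, and Acan and Hapln4 negative, with 0.97 for Dsel and -0.91 for Hapln4 in KD replicate 3.

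Profiles were compared by the mean absolute difference of centred log2 CPM over the 7 libraries, as a description, among genes with a mean of at least 5 CPM. Closest to Ptprz1 were Sema5a (0.059), a semaphorin that binds sulfated chains, Nr2e1 (0.077), a nuclear receptor of neural stem cells and astrocytes, Fndc3b (0.079), Tapbpl (0.081) and Sox6 (0.088). The median difference from Ptprz1 over 11563 genes was 0.27. Of the other members Dsel was the most like Ptprz1, at 0.151 and rank 125, and Acan the least, at 0.509 and rank 11042. Among the closest to Acan were Slc16a14 (0.172), Mmp15 (0.18), a membrane metalloproteinase, Tgfbr3 (0.186) and Cav1 (0.189), against a median of 0.423. Bcan ranked 307 for Acan, at 0.295, and Hapln4 ranked 9068, at 0.481. Acan and Hapln4 were both lower on average in KD, but the first was highest in CD replicate 4 and the second in CD replicate 1. Profiles of 7 libraries from 1 experiment share depth and dissection.

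The remaining genes of the matrix pathway were read from the same fit over 6 lists with 79 tested genes. Their fitted level was higher in KD for 28 and lower for 51, and the median log2 fold change was -0.09. None passed an adjusted p of 0.05, and 1 gene, lower in KD, had a raw p under 0.05, or 1.27% of the lists against 3.19% of all tested genes. Without CD replicate 4 the split was 42 higher and 36 lower, with a median of 0.02.

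That gene was B3gat3, the glucuronyltransferase that completes the sugar linker on which chondroitin and heparan sulfate chains are built. It had 92.6, 79.2, 72.4 and 82.4 CPM in the CD libraries and 64.7, 67.7 and 65.6 CPM in the KD libraries. Every KD library lay below every CD library. The means were 81.7 ± 8.41 CPM (SD, n = 4) and 66.0 ± 1.57 CPM (SD, n = 3), with a log2 fold change of -0.30 (standard error 0.10). By edgeR the raw p was 0.0136, and Benjamini-Hochberg adjustment over all tested genes brought it to 0.979. Its raw p ran from 0.00611 to 0.0434 as each library was left out.

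Of the 12 genes for linker and chain synthesis, 4 were higher and 8 lower, with a median of -0.11. The KD range lay below the CD range in 4 of them, where 2.56% of all tested genes did so. They were B3gat3 and, named after their values were seen, Xylt2, Csgalnact2 and Chsy3. Xylt2 is the xylosyltransferase that starts the linker, Csgalnact2 adds the first chondroitin sugar, and Chsy3 is a chain polymerase. The gaps in CPM were small for Xylt2 (highest KD 16.69, lowest CD 16.73) and Chsy3 (38.35 and 38.93). By edgeR the raw p was 0.163 for Xylt2, 0.188 for Csgalnact2 and 0.108 for Chsy3. Over the 79 tested genes of the 6 lists, the KD range lay below the CD range in 4 and above it in 1. Among all tested genes the shares were 2.56% below and 1.64% above. Csgalnact1 had the most positive value, 0.20 (standard error 0.15). The 11 tested sulfation and epimerisation genes had 4 higher and 7 lower values with a median of -0.09, and 7 higher and 4 lower with a median of 0.03 without CD replicate 4. Chst11, which sulfates position 4 of the chain, had 50.2 CPM in CD and 48.7 CPM in KD, and Chst3, a position 6 enzyme, 2.37 and 2.19 CPM. The 12 linker and chain genes had fold changes of -0.30 to 0.20 on the log2 scale where Dsel had 0.62, and this contrast was not tested.

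The hyaluronan list had 2 higher and 9 lower genes, with a median of -0.28, and 7 higher and 4 lower, with a median of 0.06, when CD replicate 4 and KD replicate 3 were both left out. Has2 and Has3, which make hyaluronan, had log2 fold changes of 0.44 (standard error 0.33) and -0.06 (standard error 0.21). Of the other link proteins Hapln2, found at the nodes of myelinated axons, differed by -0.42 on the log2 scale (standard error 0.52), and Hapln3, the neighbour of Acan, -0.28 (standard error 0.38).

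Proteases and their inhibitors had 6 higher and 9 lower genes of 15, with a median of -0.04. The split was 11 higher and 4 lower (median 0.15) without CD replicate 4, 9 higher and 6 lower (median 0.11) without KD replicate 1, and 3 higher and 12 lower (median -0.16) without KD replicate 3. The aggrecan-cleaving enzymes Adamts4, Adamts5 and Adamts15 had log2 fold changes of -0.30 (standard error 0.54), 0.22 (standard error 0.34) and 0.03 (standard error 0.36), and Mmp9, a metalloproteinase that cleaves net components, -0.17 (standard error 0.53). With these standard errors a difference of 0.50, the value of Ptprz1, was not detectable.

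Receptors and ligands had 10 higher and 6 lower genes of 16, with a median of 0.04, and 8 in each direction with a median of -0.005 without CD replicate 2. Ptn, pleiotrophin, the main ligand of Ptprz1, had 217 CPM in CD and 208 CPM in KD (log2 fold change -0.05, standard error 0.12). Cntn1, contactin-1, which binds Ptprz1 on neurons, had 883 and 939 CPM (0.10, standard error 0.07). Its KD range lay above the CD range, as in 1.64% of all tested genes. Ptprs, a receptor for chondroitin sulfate, had 275 and 280 CPM (0.04, standard error 0.09). Neither the ligand nor the receptors had a raw p under 0.05.

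Other proteoglycans and matrix proteins had 2 higher and 12 lower genes of 14, with a median of -0.07. The 4 lowest values were those of Tnxb, Omd, Ogn and Bgn, genes of fibroblast matrix, at -1.08 to -0.60 with standard errors of 0.51 to 0.75, and meningeal fibroblast markers were highest in CD replicate 4 (228 CPM). Cspg5, neuroglycan C, and Spock2, testican-2, which brain cells make, had log2 fold changes of -0.04 (standard error 0.09) and -0.01 (standard error 0.13).

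**Figure D5:**
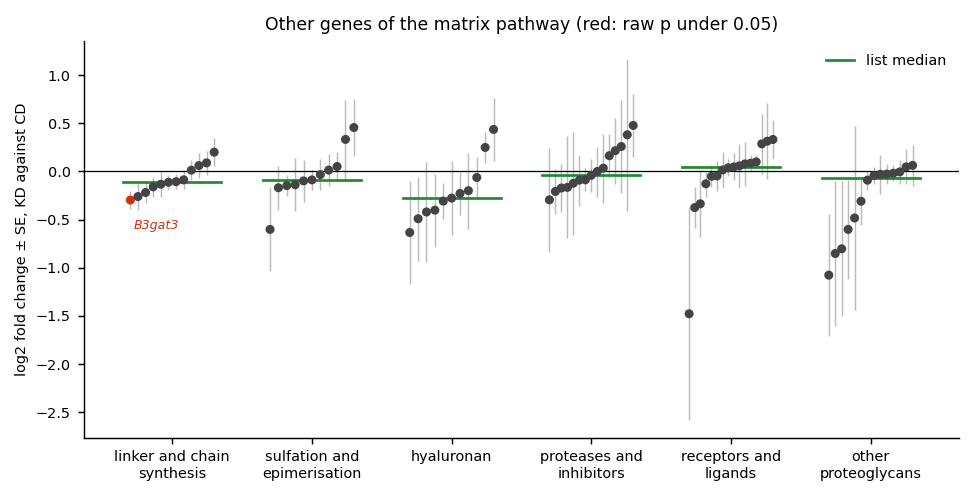
Log2 fold change of KD against CD with its standard error for the 79 other genes of the matrix pathway, in 6 lists (points sorted within each list; green line, list median; red, raw p under 0.05). B3gat3, at -0.30, is the gene in red, and the list medians lie between -0.28 and 0.04.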

How the data were processed

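RNA-seq of brain cortex was analysed in 7 APP/PS1 mice, 4 on CD and 3 on KD. The authors aligned reads to mm10 with STAR and deposited raw counts per gene symbol, 1 table per mouse, without normalization; libraries were made with a stranded kit, and the annotation, the strand option of the counting and versions are not given in the sources used here. Diet and replicate came from the sample titles. Totals were 22272883 to 36614954 counts, and a level of 3 counts is 0.0819 to 0.135 CPM.

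CPM used the library total. Positions and exon lengths are from GENCODE M21 (GRCm38, the mm10 genome), and promoters from RefSeq. KD was compared with CD over all genes with edgeR 4.0.16 in R 4.3.3 (filterByExpr, leaving 15881 genes, TMM factors 0.978 to 1.04, robust glmQLFit, glmQLFTest), as the study names edgeR, TMM and a raw p of 0.01. Standard errors were derived from the fold change and its F. The procedure was also run on simulated counts that held no tissue or sex differences between libraries, and nothing is concluded from that run here. Neighbouring levels were compared by an exact sign-flip test over all 128 sign patterns, whose smallest p is 0.0156. Alternatives were DESeq2 1.42.0, the likelihood-ratio test, other scalings and filters, Xist as a covariate, a replicate block and left-out libraries.

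The members and lists were chosen with earlier results of these data known. Named were the members, pathway genes with a raw p under 0.05, marker genes and the 5 profiles nearest to Acan and Ptprz1, of which 1 is not reported here. Other pathway genes, such as Xylt2, Csgalnact1, Csgalnact2, Chsy3, Dse, Cntn1 and Tnxb, were named after their values were seen. Replicate numbers were not taken as pairs. The deviations of libraries with a shared number correlated at 0.251, 0.195 and 0.098, and those with different numbers at -0.35 to 0.308. These values do not settle whether the numbers mark pairs. Symbols of 2 pathway genes, Cemip and Cemip2, were matched through older names.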

Additional observations from a re-analysis of the deposited data

Results flagged for a closer look

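Each of 22 measures (the 10 members, 11 marker lists and B3gat3) was searched for a CD library distant from the other 3, which chance gives in about 5% of such groups. The level of mature oligodendrocyte markers stood apart in CD replicate 3, with a mean log2 CPM of 5.95 against 7.68 to 7.87 in the other CD libraries, a gap of 0.902 of the group's range. None of the 10 members had a CD library this far from the rest. Tnr was highest in that same library, at 169 CPM.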

How the results depend on the processing

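Of 150 recomputed fold changes of the 10 genes (15 alternatives each), 143 kept their direction and moved by less than 1 SD. That SD is the gene's SD of log2 CPM within the diets, 0.48 for Acan and 0.75 for Tnc. By it Acan counted as unmoved at -0.37 with the replicate block, where the main fit gave -0.61. The alternatives of scaling, filter and test hardly altered the fold changes, so the count of 143 says little about stability. The direction changed in 7: Bcan to 0.00179 without CD replicate 4 (-0.183 to 0.00179 as each library was left out) and 0.00223 with the replicate block, Hapln1 to -0.00888, -0.0282 and -0.0685 without CD replicates 2 and 3 and KD replicate 1 (highest 0.125), Vcan to -0.0941 without KD replicate 1 (highest 0.336), and Tnc to -0.182 without KD replicate 3 (highest 0.681). The count of 51 at the raw threshold of 0.01 became 120 with DESeq2, 103 with the likelihood-ratio test, 182 with the replicate block and 227 with Xist as a covariate, and 19 to 211 as each library was left out (19 without CD replicate 1, 31 without CD replicate 2, 211 without CD replicate 3, 33 without CD replicate 4, 96 without KD replicate 2 and 33 without KD replicate 3). Of the calls 47.1% were higher in KD, against 35.4% with library size alone, 58.3% with the likelihood-ratio test, 31.6% (without CD replicate 1) to 60.6% (without KD replicate 1) as each library was left out, and 63.0% with CD replicate 4 and KD replicate 3 both left out. An adjusted p under 0.05 was reached by 1 gene with the likelihood-ratio test and 1 with the Xist covariate, and by 0 under the other settings. The count of pathway genes at a raw p under 0.05 was 5 with the replicate block, 6 with the Xist covariate, 3 with CD replicate 4 and KD replicate 3 both left out, and 1 to 4 as each library was left out (4 without CD replicate 3, 3 without CD replicate 4 and 3 without KD replicate 2). B3gat3 was among them in each of these fits. Of the neighbours in level, 0 to 6 pairs passed as each library was left out (6 without KD replicate 3, 0 otherwise), but 6 libraries allow no exact permutation p under 0.0312, so these counts say nothing about stability; per length of the longest transcript 5 passed. The replicate block covered only the libraries numbered 1 to 3, which share a number and nothing else known. Beyond fewer samples, the cause was not tested. Depth limits Acan and Tnc most, with 116 to 434 and 77 to 317 counts per library.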
